A study of Mus musculus with 16 samples.

Results

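The 7SK RNA (Rn7sk), the proteins that work with it and a set of other small structured RNAs were followed in whole brains of C57BL/6 mice that had met bacterial lipopolysaccharide (LPS) before birth, at puberty, at both times or never. The set holds 10 of the 49671 genes in the count files, chosen by symbol. There are 4 small RNAs, namely Rn7sk, Snord104, Rpph1 and Rmrp, and 6 protein genes, namely Larp7, Mepce, Hexim1, Cdk9, Ccnt1 and Ccnt2. Of these, 9 were among the 18875 genes that passed a filter on low counts, and Rmrp did not pass. Rn7sk and Snord104 were included because earlier work on these same libraries had shown them to be high, so their differences between groups are given here as a description, with no p. The same holds for Rpph1 and Rmrp. Among the members, differences between groups are given with a p for the 6 protein genes.

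There were 4 groups of 4 mice, with 1 library from each whole brain. The LPS-LPS group had LPS injected into the pregnant dam on gestation day 16 and into the offspring on postnatal day 30. The LPS-saline group had LPS before birth and saline at puberty, the saline-LPS group had the reverse, and the saline-saline group had saline on both occasions. Brains were taken at postnatal day 32, so every brain was collected after an injection of some kind at puberty. Each label names a pair of injections, and the first was read as the dam's. The labels do not say this, and the reverse reading would exchange the LPS-saline and saline-LPS groups. Litters are not named, so brains from 1 dam may occur more than once within a group or across groups alike before birth.

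The 7SK RNA is a nuclear non-coding RNA made by RNA polymerase III. It acts as a scaffold. MEPCE caps its 5′ end, LARP7 binds its 3′ end, and HEXIM1 on this scaffold holds P-TEFb, the kinase CDK9 with cyclin T1 or T2, in an inactive state. When P-TEFb is let go, it phosphorylates paused RNA polymerase II and its partner factors and starts productive elongation, a step that immediate-early and inflammatory genes depend on. Rpph1 is the RNA of RNase P, which trims the 5′ end of transfer RNA precursors. Rmrp is the RNA of the related enzyme RNase MRP, which cuts ribosomal RNA precursors. Snord104 is a box C/D small nucleolar RNA, a class that guides methylation of ribosomal RNA. None of these 4 RNAs ends in a long poly(A) tail, and the protocol does not say whether the libraries were made by poly(A) selection or by removal of ribosomal RNA.

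Stretches of the 3 small RNAs that gave counts are printed from 5′ to 3′ as annotated transcripts of GENCODE M21 (GRCm38), because how much of each is shared with other genes decides what a read from it can show. Rn7sk lies on chromosome 9 (78175303 to 78175633, minus strand, 331 bases). In its first 80 bases the capitals mark GATC, and in bases 232 to 331 they mark the last 90 bases, which lie beyond a stretch of 241 bases identical to the annotated copy Gm24447. Snord104 lies on chromosome 11 (106500993 to 106501062, plus strand, 70 bases), and its capitals mark TGATGA and each CTGA, the C and D box letters of its class. Rpph1 lies on chromosome 14 (50807449 to 50807767, minus strand, 319 bases), and the capitals in its ends mark the 86 bases that are not also part of an annotated exon of Ccnb1ip1 on the same strand.
Rn7sk, 5′ end: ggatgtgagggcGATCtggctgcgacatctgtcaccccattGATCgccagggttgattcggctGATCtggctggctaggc
Rn7sk, 3′ end: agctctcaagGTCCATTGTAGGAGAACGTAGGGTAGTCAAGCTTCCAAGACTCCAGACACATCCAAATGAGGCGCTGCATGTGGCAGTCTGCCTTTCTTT
Snord104: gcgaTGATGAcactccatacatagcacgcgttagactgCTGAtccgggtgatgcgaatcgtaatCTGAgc
Rpph1, 5′ end: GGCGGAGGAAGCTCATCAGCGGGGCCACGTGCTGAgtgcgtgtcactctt
Rpph1, 3′ end: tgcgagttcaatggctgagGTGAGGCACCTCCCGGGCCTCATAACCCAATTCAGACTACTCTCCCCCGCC

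The letters GATC stand at bases 13, 42 and 64 of Rn7sk, counted from its 5′ end. In human 7SK a pair of facing GAUC motifs in the first hairpin is where HEXIM1 binds. GATC, which reads the same on both strands, occurs at least 3 times in 9.15% of the 4689 annotated transcripts of 300 to 360 bases. In Snord104, TGATGA begins at base 5 and CTGA at bases 39 and 65. TGATGA within the first 15 bases together with CTGA within the last 15, searched on the transcript's own strand, occurs in 61.7% of 454 annotated snoRNA transcripts of 60 to 100 bases. Neither Rn7sk nor Rpph1 holds a long internal run of A where an oligo(dT) primer could anneal. The longest is 3 bases in Rn7sk, and 32.0% of the 4689 transcripts have no longer run. In Rpph1 it is 2 bases, and 3.75% have no longer run.

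Libraries held 25729919 to 38571036 gene counts, so that 1 read was worth 0.0259 to 0.0389 CPM, the count scaled to a common library size. General brain markers were high in every library, with the neuronal Snap25 at 980.5 to 1681 CPM and the myelin gene Mbp at 5237 to 7144 CPM. The cerebellar granule cell gene Gabra6 lay between 0 and 70.4 CPM and divided the 16 libraries into 8 under 1 CPM and 8 at 1 CPM or more, with both kinds in every group. The 8 under 1 CPM had at most 0.277 CPM, so the name whole brain may not hold for the cerebellum there, which was not tested. The kinds were not spread evenly. Only replicate 2 of LPS-LPS was under 1 CPM, and only replicate 4 of saline-saline was at 1 CPM or more. The pituitary gene Gh reached 502.1 CPM in LPS-LPS replicate 1, against 44.1 CPM at most elsewhere. LPS-LPS replicate 3 went against the protocol's statement that the offspring were male. It had 502.9 CPM of Xist and 0 CPM of the Y-linked Ddx3y, while the other 15 libraries had at most 0.276 CPM of Xist and at least 35.6 CPM of Ddx3y. This library also held the highest level of Rn7sk, Snord104 and Rpph1, so their differences between groups are also given without it, and values that include it throughout are named as such.

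Rn7sk was higher in every LPS-LPS brain than in any other brain. The 4 LPS-LPS libraries had 2.76, 2.63, 6.61 and 1.82 CPM. The LPS-saline libraries had 1.36, 0.777, 0.564 and 0.926 CPM, the saline-LPS libraries 0.999, 1.43, 1.66 and 1.59 CPM, and the saline-saline libraries 1.39, 1.37, 0.748 and 1.06 CPM. The LPS-LPS values thus did not overlap those of the other 12 libraries, a separation upward that 0.662% of all genes tested had. The 3 other groups overlapped one another, and LPS-LPS replicate 3 stood 2.40 times above the next highest library.

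These levels rest on few reads. Rn7sk had 431 reads in all in the LPS-LPS group, 114 in LPS-saline, 173 in saline-LPS and 158 in saline-saline, and between 20 and 209 in a single library. The exact 95% Poisson interval of the lowest LPS-LPS library, 1.37 to 2.37 CPM, overlapped that of the highest library of the other groups, 1.23 to 2.18 CPM. Such intervals cover counting error only, since reads carried no molecular identifiers. In a whole brain, fewer cells of a type and less RNA per cell cannot be told apart.

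By edgeR's fit the log2 fold change of Rn7sk was 1.60 ± 0.34 (SE) for LPS-LPS against saline-saline, 1.95 ± 0.36 against LPS-saline and 1.28 ± 0.34 against saline-LPS. Without LPS-LPS replicate 3 these values were 1.07, 1.42 and 0.76. The values without it were smaller and still above 0 against each other group. This is a description, since Rn7sk was chosen as high in LPS-LPS in these same libraries. A single LPS injection gave no clear difference from saline-saline, with -0.35 ± 0.39 for LPS-saline and 0.31 ± 0.37 for saline-LPS. The interaction, which sets the pubertal LPS difference after prenatal LPS against that after prenatal saline, was 1.64 ± 0.51 and 1.11 without LPS-LPS replicate 3. Among the libraries under 1 CPM of Gabra6 the difference between LPS-LPS and saline-saline was 1.16, and among those at 1 CPM or more, LPS-LPS replicate 3 included, it was 1.82. Each of these values has 1 library on one side, LPS-LPS replicate 2 in the first and saline-saline replicate 4 in the second, which is assumed to vary like the others.

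**Figure D1:**
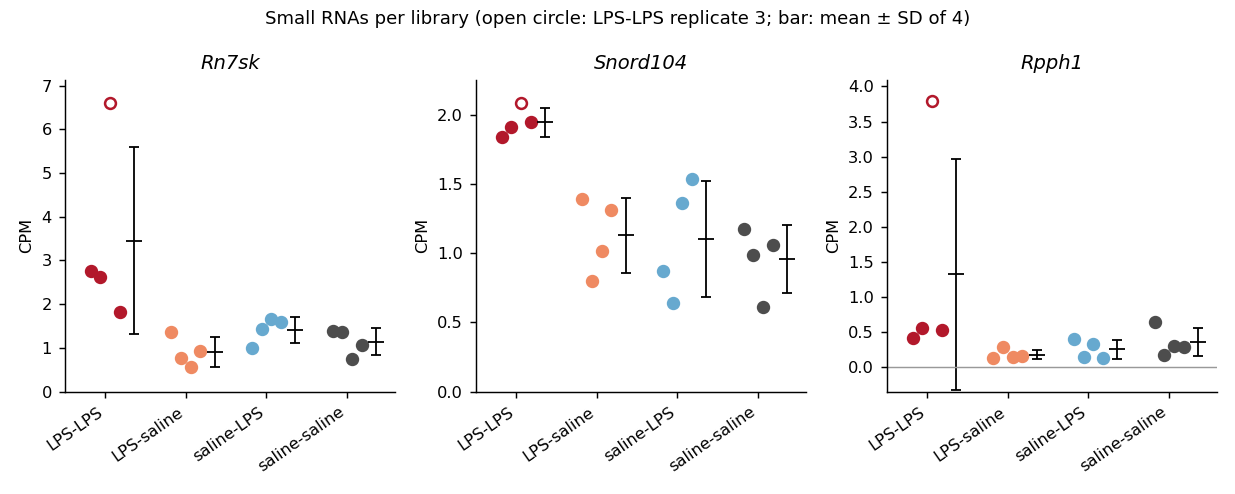
CPM (vertical axes) of Rn7sk, Snord104 and Rpph1 in each of the 16 libraries, by group, with the mean ± SD of 4 libraries beside the points and LPS-LPS replicate 3 as an open circle. All 4 LPS-LPS libraries lie above the other 12 for Rn7sk and Snord104, while Rpph1 at 3.79 CPM in LPS-LPS replicate 3 stands far above every other library.

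Snord104 was higher in the LPS-LPS brains too, and here the 4 values lay close together. The LPS-LPS libraries had 1.84, 1.91, 2.09 and 1.95 CPM. The LPS-saline libraries had 1.39, 0.803, 1.01 and 1.31 CPM, the saline-LPS libraries 0.874, 0.638, 1.36 and 1.53 CPM, and the saline-saline libraries 1.17, 0.984, 0.610 and 1.06 CPM. Again the LPS-LPS group did not overlap the other 12 libraries, and its SD of 0.104 CPM was the smallest of the 4 groups. Each LPS-LPS value rests on 58 to 66 reads, so an SD this small lies within counting error. The exact 95% Poisson interval of the lowest LPS-LPS library, 1.396 to 2.376 CPM, overlapped that of saline-LPS replicate 4, 1.137 to 2.02 CPM. LPS-LPS replicate 3 was only 1.07 times the next highest library.

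The log2 fold change of Snord104 was 1.02 ± 0.25 for LPS-LPS against saline-saline, 0.80 ± 0.24 against LPS-saline and 0.81 ± 0.25 against saline-LPS. Without LPS-LPS replicate 3 these were 0.99, 0.76 and 0.77, close to the values with it. Against saline-saline, LPS-saline stood at 0.22 ± 0.26 and saline-LPS at 0.22 ± 0.26, within 1 SE of no difference. Against saline-LPS the value was 1.31 among libraries under 1 CPM of Gabra6, where LPS-LPS replicate 2 stands alone for its group, and 0.43 among the rest. The difference between these 2 values was not tested. Reads numbered 241 in LPS-LPS, 142 in LPS-saline, 137 in saline-LPS and 132 in saline-saline. Together Rn7sk and Snord104 were the 2 of 9 members under an adjusted p of 0.05 in LPS-LPS against saline-saline, where 6.56% of all genes tested were. As these members were chosen on that contrast, the count is a description from which nothing is read.

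Rpph1 stood far above all others in 1 library. LPS-LPS replicate 3 had 3.79 CPM (120 reads), 5.92 times the next highest library, while the other 3 LPS-LPS libraries had 0.412, 0.559 and 0.529 CPM. The LPS-saline libraries had 0.136, 0.285, 0.141 and 0.154 CPM, the saline-LPS libraries 0.406, 0.150, 0.325 and 0.123 CPM, and the saline-saline libraries 0.641, 0.179, 0.305 and 0.289 CPM. Saline-saline replicate 1 lay above 3 of the 4 LPS-LPS libraries, so these groups overlapped. The LPS-LPS libraries all lay above those of LPS-saline and of saline-LPS, with log2 fold changes of 2.83 ± 0.73 and 2.37 ± 0.70, and of 1.43 and 0.97 without LPS-LPS replicate 3. Upward separation of this kind was found in 2.04% and 4.96% of all genes tested. From saline-LPS it was narrow, since LPS-LPS replicate 1 at 0.412 CPM and saline-LPS replicate 1 at 0.406 CPM had 13 reads each. The log2 fold change against saline-saline was 1.88 ± 0.65 with all libraries and 0.48 without LPS-LPS replicate 3, and the interaction was 3.32 ± 1.09 with it and 1.92 without. Rpph1 passed the filter on low counts through the LPS-LPS group: outside that group 3 libraries reached the required 0.314 CPM, and 4 were needed.

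Rmrp was listed at 0 reads in all 16 libraries, which allows at most 0.0778 to 0.117 CPM per library by the limit of 3 counts. Its whole annotated length of 271 bases (chromosome 4, 43492788 to 43493058, minus strand) lies within a longer lincRNA record of the same name in GENCODE M21, which was not used here. It also overlaps an exon of Ccdc107 on the opposite strand, and HTSeq sets aside reads that fall in several counted genes where strand is ignored. The strand setting is not given in the sources used here, and whether reads of Rmrp were set aside was not tested.

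**Figure D2:**
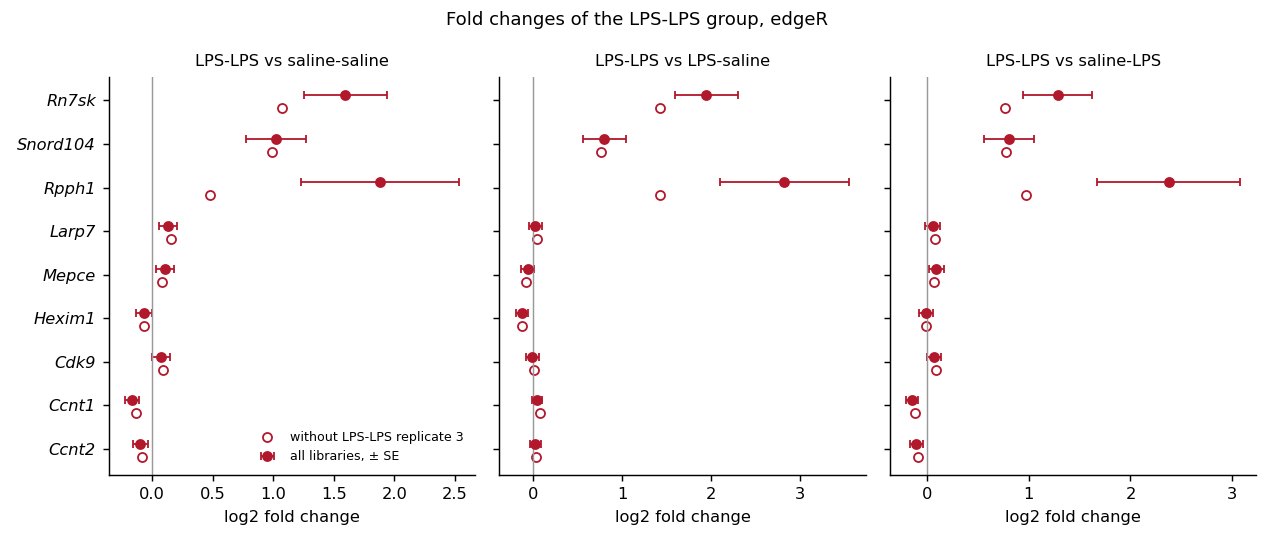
Log2 fold change (horizontal axes) of the 9 members that passed the filter, for LPS-LPS against each other group, as filled circles ± SE with all libraries and as open circles without LPS-LPS replicate 3. The open circles of Rn7sk and Rpph1 lie well to the left of the filled ones, those of Snord104 close beside them, and all 6 protein genes lie near 0.

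The increase in Rn7sk reads was not shared by its copies. By alignment, 34 annotated genes were at least 80% identical to Rn7sk over at least 50% of its length, and of the 282 windows of 50 bases in Rn7sk, 192 occur exactly in another gene. Reads that fit several places equally were not counted for a gene, so the counted Rn7sk reads should include bases that set it apart, such as those in capitals at its 3′ end. The copies, 17 of which had any read, summed to 0.494 ± 0.0782 CPM in LPS-LPS, 0.543 ± 0.238 in LPS-saline, 0.643 ± 0.174 in saline-LPS and 0.587 ± 0.0797 in saline-saline (SD, n = 4 each). Their groups overlapped. Snord104 had no such copy. The 5 annotated genes that met this rule for Rpph1 had no read, but not all are separate copies. They include Ccnb1ip1, whose annotated exon shares 233 bases with Rpph1 itself, and Rprl1 both as a ribozyme and as a lincRNA record. Whether reads in those shared bases were set aside was not tested.

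Among the genes beside the small RNAs, edgeR called Ick lower and no gene higher in LPS-LPS against saline-saline, and DESeq2 called Ccdc107 higher (adjusted p = 0.0387) and Ern1 lower (adjusted p = 0.0427) as well. Ick, a kinase gene that ends 3196 bases from Rn7sk, was at 31.1 ± 1.57 CPM in LPS-LPS and 40.0 ± 3.01 CPM in saline-saline (SD, n = 4 each), a fall with a log2 fold change of -0.36 ± 0.09 (edgeR, adjusted p = 0.0173). The value was -0.32 without LPS-LPS replicate 3 (adjusted p = 0.0756) and -0.23 with a correction for GC content and gene length (adjusted p = 0.0931). C920006O11Rik, a lincRNA gene close to Rn7sk on the opposite strand, was at 2.94 ± 0.280 CPM in LPS-LPS and 2.497 ± 0.189 in saline-saline, with overlapping libraries. Tex2, the nearest protein gene to Snord104, was at -0.11 ± 0.06 (adjusted p = 0.349), and Parp2, which begins 74 bases from Rpph1 on the opposite strand and encodes a DNA repair enzyme, at -0.04 ± 0.07 (adjusted p = 0.767). Ccnb1ip1 was listed at 0 reads in every library. Ccdc107, which overlaps Rmrp, was at 18.7 ± 1.999 CPM in LPS-LPS and 15.7 ± 0.506 in saline-saline (SD, n = 4 each; 0.25 ± 0.09, adjusted p = 0.0767), and was called when both prenatal LPS groups were set against both prenatal saline groups, a comparison added after values had been seen (0.20 ± 0.06, adjusted p = 0.0478). Gsta4, farther from Rn7sk than Ick, was at 0.11 ± 0.07 (adjusted p = 0.431).

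Several other classes of small RNA were not higher in the LPS-LPS brains than in the saline-saline brains, while the summed histone messages were. Small nucleolar and Cajal body RNAs other than Snord104 summed to 46.7 ± 3.31 CPM in LPS-LPS and 50.5 ± 6.29 in saline-saline (SD, n = 4 each). The snRNA genes of the spliceosome summed to 21.9 ± 0.299 and 25.9 ± 3.45 CPM in the same groups, and the misc_RNA class, here without its member Rn7sk, to 12.3 ± 0.467 and 13.7 ± 1.20 CPM. Replication-dependent histone genes, a class whose messages can end in a stem-loop in place of a tail, were taken by symbol. They summed to 111.4 ± 6.23 CPM in LPS-LPS, 113.6 ± 5.54 in LPS-saline, 111.7 ± 7.73 in saline-LPS and 101.1 ± 2.36 in saline-saline. The largest parts in LPS-LPS were Hist1h1c (29.5 CPM), Hist1h2bc (23.8 CPM) and Hist3h2ba (22.6 CPM), and whether these messages carried a tail was not tested. Every LPS-LPS histone sum, at 105.8 CPM or more, lay above every saline-saline sum, at 103.8 CPM or less. So did every LPS-saline sum, at 107.1 CPM or more, while the saline-LPS sums, from 100.9 CPM, overlapped those of saline-saline. Among single genes tested, 9.63% had such upward separation from saline-saline for LPS-LPS and 5.17% for LPS-saline. The means of LPS-saline and saline-LPS lay above the saline-saline mean as well. The summed rRNA genes came to 871.0 ± 448.6 CPM in LPS-LPS and 649.2 ± 83.5 in saline-saline, and the summed miRNA genes to 491.6 ± 228.7 and 362.1 ± 41.9 CPM. Both LPS-LPS means include replicate 3, at 1539 CPM of rRNA and 831.5 CPM of miRNA genes, while the other 3 LPS-LPS libraries had 575.5 to 702.4 CPM and 336.9 to 411.4 CPM.

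Single genes of these classes were not called in LPS-LPS against saline-saline. For LPS-LPS against saline-saline edgeR called 0 of 40 snoRNA genes at an adjusted p under 0.05, with a median log2 fold change of -0.17. It called 0 of 24 snRNA genes (median -0.24), 0 of 13 misc_RNA genes (-0.31), 0 of 8 scaRNA genes (-0.04), 0 of 57 miRNA genes (-0.13) and 0 of 17 histone genes (-0.02). DESeq2 called 0 in each of these classes too. At an unadjusted p under 0.05 in edgeR there were 5 snoRNA, 1 snRNA, 1 misc_RNA, 1 scaRNA, 7 miRNA and 1 histone genes, beside 4143 of all 18875 genes tested. Over all genes tested the calls came to 4.27% higher and 2.29% lower, and the median was 0.00. Among named snoRNAs, Snord55 stood at 0.61 ± 0.24 and Snora17 at -0.998 ± 0.34, neither past the threshold. Their LPS-LPS means were 1.59 and 0.363 CPM, levels at which few reads limit what can be called. In the prenatal comparison added later, edgeR called 0 snoRNA genes higher and 2 lower, beside 4.9% and 2.92% of all genes. Among 4 long nuclear RNAs, Malat1 was at -0.11 ± 0.10 and Neat1 at 0.08 ± 0.13, and edgeR called none of the 4. Meg3, at -0.24 ± 0.08 (edgeR, adjusted p = 0.0881), was called lower by DESeq2 (adjusted p = 0.0494).

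In LPS-LPS replicate 3, however, ribosomal RNA stood high together with Rn7sk and Rpph1. The rRNA gene CT010467.1 had 1534 CPM in this library, against 571.0 to 698.3 CPM in the other 3 LPS-LPS libraries and at most 851.3 CPM in the other groups. Gm23935, a gene of 57 bases annotated as a miRNA, had 751.4 CPM, against 263.8 to 337.1 CPM in the other LPS-LPS libraries. In the other 3 LPS-LPS libraries, CT010467.1 and Gm23935 lay at most at 698.3 and 337.1 CPM, against highest values of 851.3 and 335.9 CPM in the other groups. Gm23935 in LPS-LPS replicate 2 thus lay above every library of the other groups. Without replicate 3, Pearson's r of log2 CPM with Rn7sk was 0.62 for Gm23935 and 0.49 for CT010467.1. The part of ribosomal RNA in the value of replicate 3 was not tested.

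**Figure D3:**
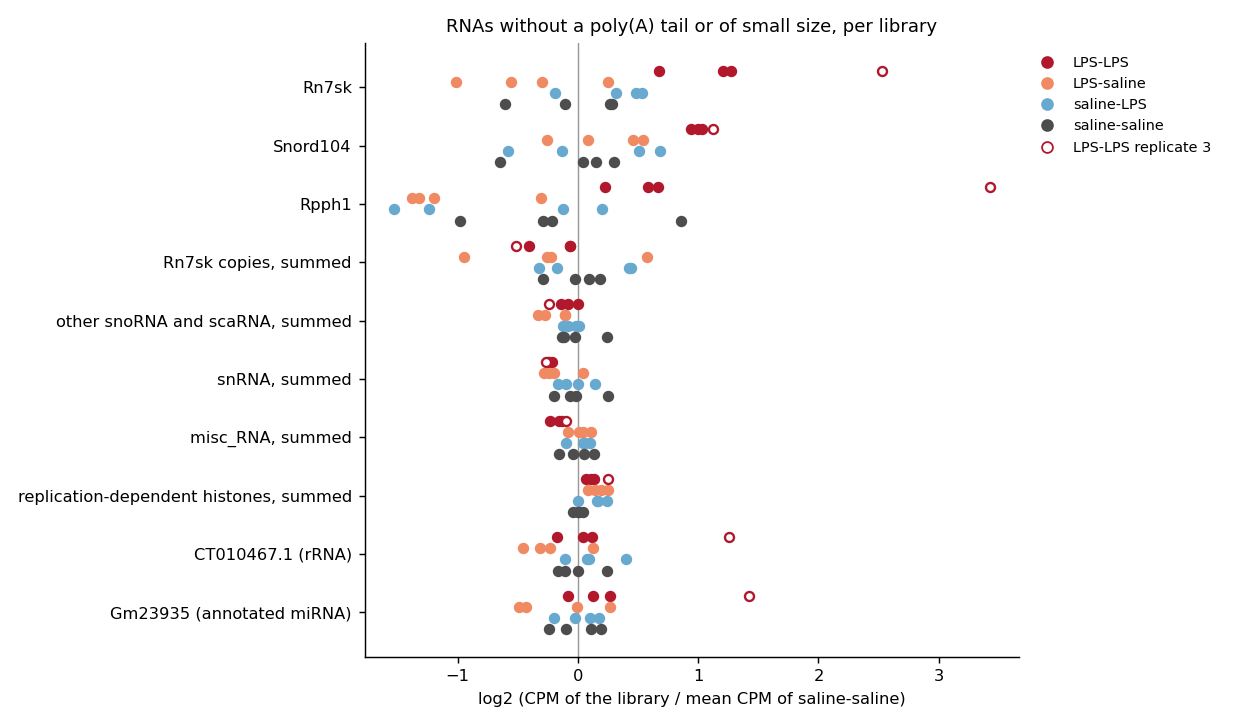
Log2 of each library's CPM over the saline-saline mean (horizontal axis) for the 3 small RNAs, the summed copies of Rn7sk, summed classes of other small RNAs and of histone messages, and 2 abundant single genes, colored by group, with LPS-LPS replicate 3 as an open circle. The LPS-LPS libraries lie to the right for Rn7sk and Snord104 but not for the summed snoRNA, snRNA and misc_RNA classes, and the open circle lies farthest to the right for CT010467.1 and Gm23935.

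The 6 protein genes of the 7SK particle and of P-TEFb were near their saline-saline level in every group, with log2 fold changes between -0.21 and 0.17 against saline-saline. In none of the 6 comparisons of the design did edgeR call any of them, at an adjusted p under 0.05. The background was 6.56% of genes called for LPS-LPS against saline-saline, 0.609% for LPS-LPS against saline-LPS, 0.18% for LPS-saline against saline-saline, and 0% for LPS-LPS against LPS-saline, saline-LPS against saline-saline and the interaction. At an unadjusted p under 0.05 there were 1, 1 and 2 of the 6 in the first 3 of these and 0 in the others. Of all 18875 genes tested, 4143, 2637 and 2497 were under that p in the first 3. DESeq2 called Ccnt1 in LPS-LPS and in LPS-saline against saline-saline.

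Larp7 (chromosome 3, 127536714 to 127553349), whose protein binds the 3′ end of 7SK and protects it from decay, had 18.4, 17.3, 16.3 and 16.8 CPM in LPS-LPS, against 16.6, 14.6, 15.5 and 16.0 CPM in saline-saline. The groups overlapped, with a log2 fold change of 0.13 ± 0.07 (edgeR, adjusted p = 0.309). Mepce (chromosome 5, 137781906 to 137787655), the capping enzyme of 7SK, averaged 53.1 ± 2.16 CPM in LPS-LPS, 55.4 ± 5.59 in LPS-saline, 49.9 ± 3.11 in saline-LPS and 49.4 ± 4.45 in saline-saline (SD, n = 4 each). Its largest difference from saline-saline was 0.17 ± 0.07 in LPS-saline (adjusted p = 0.335). Hexim1 (chromosome 11, 103116231 to 103119725), the inhibitor that 7SK brings to P-TEFb, averaged 74.9 ± 4.22, 81.9 ± 3.51, 75.4 ± 6.29 and 78.4 ± 5.51 CPM in the same order of groups. For LPS-LPS against saline-saline it stood at -0.07 ± 0.07 (adjusted p = 0.621). A change in Rn7sk reads of the size seen in LPS-LPS was therefore not accompanied by one of like size in the RNA of any of its 3 core partners.

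Cdk9 (chromosome 2, 32705784 to 32713076), the kinase of P-TEFb, averaged 96.3 ± 5.03 CPM in LPS-LPS, 96.9 ± 8.47 in LPS-saline, 91.9 ± 7.78 in saline-LPS and 91.5 ± 6.49 in saline-saline. Ccnt2 (chromosome 1, 127774164 to 127808061), which encodes cyclin T2, averaged 93.2 ± 2.93, 92.0 ± 4.07, 100.5 ± 4.52 and 99.9 ± 9.26 CPM in the same order (SD, n = 4 each). Both overlapped between LPS-LPS and saline-saline, at 0.07 ± 0.07 for Cdk9 (edgeR, adjusted p = 0.605) and -0.10 ± 0.06 for Ccnt2 (adjusted p = 0.372). Of the 4611 exonic bases of Cdk9, 155 are shared with annotated miRNA genes on the same strand.

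Ccnt1 (chromosome 15, 98538689 to 98570923), which encodes cyclin T1, was the protein gene of the 6 with the largest log2 difference by prenatal injection. The LPS-LPS libraries had 41.6, 40.0, 38.1 and 41.3 CPM and the LPS-saline libraries 38.9, 39.1, 39.6 and 38.4 CPM. The saline-LPS libraries had 47.0, 40.9, 43.8 and 46.5 CPM and the saline-saline libraries 44.3, 46.1, 42.6 and 47.3 CPM. Every library of both prenatal LPS groups lay below every saline-saline library. Downward separation of this kind was found in 7.81% of all genes for LPS-LPS and 3.95% for LPS-saline. The log2 fold changes were -0.16 ± 0.06 (edgeR, adjusted p = 0.0930; DESeq2, 0.0414) and -0.21 ± 0.06 (edgeR, adjusted p = 0.102; DESeq2, 0.0214). With the replicate number as a block, the LPS-saline difference was -0.21 with an adjusted p of 0.0497.

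In a comparison added after these values had been seen, both prenatal LPS groups were set against both prenatal saline groups. Ccnt1 then fell by 0.18 ± 0.04 on the log2 scale (edgeR, adjusted p = 0.0126), in a comparison that called 7.82% of all genes, and it was the 1 protein gene of the 6 that was called. Since the values of Ccnt1 prompted this comparison, its p is no independent test. Saline-LPS replicate 2 at 40.9 CPM lay below 2 LPS-LPS libraries, so these groups of 8 overlapped. With a correction for GC content and gene length the value was -0.10 (adjusted p = 0.136), and among libraries under 1 CPM of Gabra6 it was -0.16 (adjusted p = 0.365). Of the 9157 exonic bases of Ccnt1, 695 overlap the antisense gene 9330020H09Rik, and without a stated strand setting reads there cannot be told apart. Averaged over the prenatal injection, pubertal LPS gave 0.01 ± 0.04 for Ccnt1 (adjusted p = 0.991), and edgeR called 0 genes, with 947 at an unadjusted p under 0.05 and 7 called by DESeq2.

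**Figure D4:**
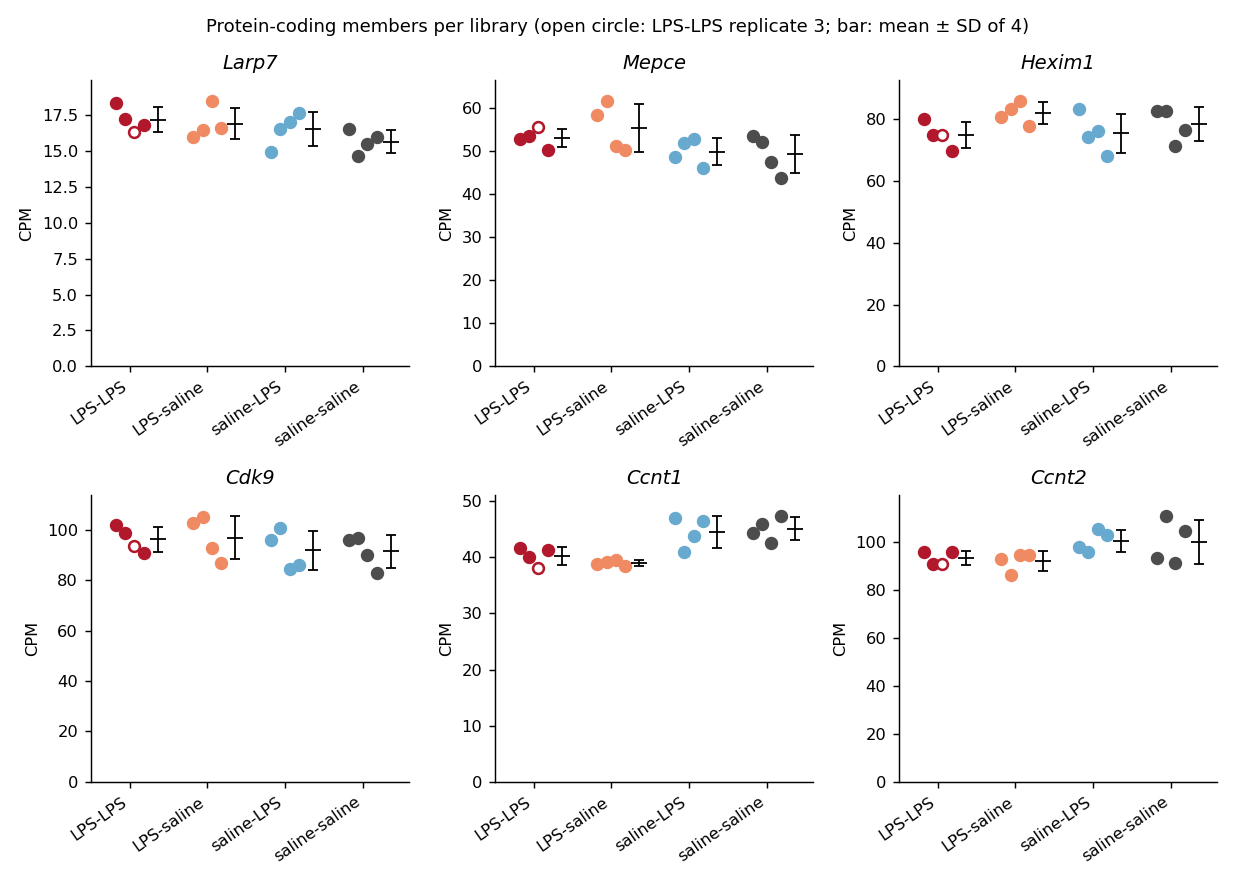
CPM (vertical axes, from 0) of the 6 protein-coding members in each of the 16 libraries, by group, with the mean ± SD of 4 libraries beside the points and LPS-LPS replicate 3 as an open circle. Groups overlap in 5 of the 6 panels for LPS-LPS against saline-saline, and in the Ccnt1 panel every LPS-LPS and LPS-saline library lies below the saline-saline ones.

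Per length, in CPM per kilobase of annotated exon, the protein members kept the same order in LPS-LPS and saline-saline. In LPS-LPS, Hexim1 stood at 21.4 ± 1.21, Cdk9 at 20.9 ± 1.09, Mepce at 14.9 ± 0.608, Ccnt2 at 7.55 ± 0.237, Larp7 at 7.27 ± 0.368 and Ccnt1 at 4.40 ± 0.177 (SD, n = 4). In saline-saline the values were 22.4 ± 1.58, 19.8 ± 1.41, 13.9 ± 1.25, 8.09 ± 0.750, 6.63 ± 0.346 and 4.92 ± 0.222. Hexim1 and Cdk9 did not differ beyond their spread in LPS-LPS, nor did Ccnt2 and Larp7. Rn7sk, one of the most abundant nuclear RNAs of a cell, stood at 10.4 ± 6.47 CPM per kilobase in LPS-LPS and 3.45 ± 0.915 in saline-saline, below Mepce in both, with LPS-LPS replicate 3 included.

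Other genes of transcript elongation moved in both directions. Of 25 genes of P-TEFb release and pausing, edgeR called 2 higher and 3 lower in LPS-LPS against saline-saline, where it called 4.27% of all genes higher and 2.29% lower, and the median log2 fold change was -0.03. Supt4a, a subunit of the pausing and elongation factor DSIF, rose to 52.4 ± 2.05 CPM in LPS-LPS, against 41.8 ± 1.96 in saline-saline (SD, n = 4 each; 0.32 ± 0.06, adjusted p = 0.00457). Nelfe, a subunit of the pausing complex NELF, rose as well (0.27 ± 0.07, adjusted p = 0.0277). The scaffolds of the super elongation complex, which carries active P-TEFb, fell, with Aff1 at -0.35 ± 0.09 (adjusted p = 0.0298) and Aff4 at 171.4 ± 5.37 CPM in LPS-LPS and 206.2 ± 11.4 in saline-saline (-0.27 ± 0.06, adjusted p = 0.00846). Cdk12, a kinase of elongating polymerase II, fell by 0.24 ± 0.07 on the log2 scale (adjusted p = 0.0366). Among 12 genes of other 7SK-binding proteins and regulators, 1 was called: Srsf2, a splicing factor that binds 7SK at promoters, fell by 0.24 ± 0.06 (adjusted p = 0.0201). In alternatives added after these values had been seen, the calls among the 25 genes came to 1 higher (Supt4a, adjusted p = 0.0253) and 1 lower (Aff4, 0.0393) without LPS-LPS replicate 3. The log2 fold changes of Nelfe, Aff1 and Cdk12 without this library were 0.29, -0.30 and -0.25. With the GC and length correction Supt4a was the only one of the 25 called (0.24, adjusted p = 0.0101), and Aff4 stood at -0.12 (adjusted p = 0.109). Srsf2 was still called with that correction (adjusted p = 0.0118) but not without LPS-LPS replicate 3 (-0.24, adjusted p = 0.0670).

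Genes for the protein parts of the small RNA particles and for the polymerase that makes them gave few calls, beside 4.27% of all genes called higher and 2.29% lower. Of 11 RNase P and RNase MRP proteins, 2 rose and 0 fell past the threshold in LPS-LPS against saline-saline, and the median log2 fold change was 0.17. Rpp25 rose to 26.1 ± 1.105 CPM in LPS-LPS, against 21.2 ± 0.608 in saline-saline (0.30 ± 0.08, adjusted p = 0.0259), and Rpp21 rose by 0.31 ± 0.08 (adjusted p = 0.0282). Of 8 snoRNP proteins, Nhp2, a core protein of H/ACA particles, was the only one called (0.29 ± 0.07, adjusted p = 0.0201). Nhp2 belongs to a different class of particle from Snord104, which is a box C/D RNA. Of 22 genes of RNA polymerase III and its factors, Snapc2, a subunit of the complex that binds the 7SK promoter type, was the only one called (0.33 ± 0.07, adjusted p = 0.00942), and the median was -0.03. These adjusted p are edgeR's over all 18875 genes. Without LPS-LPS replicate 3, Snapc2 was still called (0.32, adjusted p = 0.0421), while Rpp25 (0.29), Rpp21 (0.31) and Nhp2 (0.27) had adjusted p of 0.0806, 0.0784 and 0.0772. With the GC and length correction none of the 4 was called, at log2 fold changes of 0.12 for Rpp25, 0.15 for Rpp21 and 0.17 for both Nhp2 and Snapc2, and adjusted p of 0.143 to 0.353. The same 2 alternatives brought the calls among all genes to 233 higher and 64 lower, and to 319 higher and 197 lower, against 806 and 432.

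The LPS-LPS libraries also held relatively more reads of genes with short exonic length. For each library the deviation of its log2 CPM from the mean of all libraries was correlated across genes with exonic length (Spearman, a description, since genes are not independent replicates). The values ran from -0.270 to -0.132 in LPS-LPS, -0.166 to -9.73e-05 in LPS-saline, -0.0429 to 0.194 in saline-LPS and 0.0999 to 0.224 in saline-saline, so LPS-LPS and saline-saline did not overlap. Rn7sk and Snord104 are short and were high in the group where this measure was lowest. When GC content and length were corrected for in the fit, the difference between LPS-LPS and saline-saline was 1.56 for Rn7sk, 1.07 for Snord104 and 1.79 for Rpph1, against 1.60, 1.02 and 1.88 without, all with LPS-LPS replicate 3 included. The correction set extreme lengths and GC contents to a lower or upper limit, and it gave genes of low level less weight. Whether it removes a length effect for RNAs as short and scarce as these was not tested.

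Within groups, 6 library measures were compared with Rn7sk as deviations from the group means (n = 16, two-sided permutation tests within groups, adjusted over the 6). The length measure had the strongest relation, with Pearson's r = -0.57 (p = 0.0142, adjusted p = 0.0854) and Spearman's rho = -0.46 (p = 0.0874, adjusted p = 0.524). It did not pass the adjustment, and r was -0.54 without the 2 libraries farthest from the median of that measure and -0.53 without LPS-LPS replicate 3. The summed histone messages had r = 0.16 and rho = 0.00 (permutation p = 0.621 and 1). For the other snoRNAs and scaRNAs r was -0.02 and rho 0.03 (p = 0.947 and 0.935), for the percentage of reads without a gene -0.06 and 0.10 (p = 0.801 and 0.734), for the number of gene counts -0.14 and -0.21 (p = 0.568 and 0.456), and for Gabra6 0.06 and 0.03 (p = 0.846 and 0.913). None of the adjusted p values was under 0.05. Without LPS-LPS replicate 3 the histone relation was -0.40 and that of the other snoRNAs and scaRNAs 0.41. Neither of those passed the adjustment.

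As a description, the genes whose log2 CPM was most like that of Rn7sk over the 16 libraries were Mien1 (Pearson's r = 0.90), Lars2 (0.88), the metallothionein Mt3 (0.85), Gm23935 (0.85), the mitochondrial assembly factor Pet100 (0.83), Gm24187 (0.82), the mitochondrial RNA-binding protein Slirp (0.82), Anapc13 (0.82), Drap1 (0.81) and the ribosomal protein Rps29 (0.80). These points share libraries, groups and the length measure above. Among deviations from group means the closest were Lars2 (0.87), Gm23935 (0.86), 4930444P10Rik (0.83), S100a13 (0.83) and CT010467.1 (0.82). When LPS-LPS replicate 3 was left out, r over the levels was 0.62 for Gm23935, 0.49 for CT010467.1 and 0.00 for 4930444P10Rik, and 0.83 for Slirp. Among the members, Snord104 and Rn7sk were both chosen as high in LPS-LPS, which by itself raises their r over the levels. Among deviations from group means, r of Snord104 with Rn7sk was 0.45. Over the levels it was 0.75, and 0.73 without LPS-LPS replicate 3. Rpph1 had 0.80 with that library and 0.44 without it, and the 6 protein genes lay between -0.32 for Hexim1 and 0.23 for Mepce.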

How the data were processed

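RNA of 16 whole brains was sequenced. Per the submitters' processing notes, the tools were STAR 2.5.2b and HTSeq 0.11.2, and the build was GRCm38. The authors deposited 1 table of raw counts for each library, with whole numbers per Ensembl gene. No source used here gives the annotation release, the strand setting or the type of library. A table has 49671 genes and 5 special entries, which were kept out of library sizes and tests. Those entries held reads without a gene (8.37 to 11.0% of a library), ambiguous reads (5.11 to 5.48%) and reads with several alignments (3.18 to 3.90%). GENCODE M21 named 49412 of the identifiers and left 259 unnamed, and it supplied coordinates, exonic lengths and sequences.

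Counts were fitted in edgeR 4.0.16 (R 4.3.3) with filterByExpr, TMM scaling and a robust quasi-likelihood model of the 4 groups, with Benjamini-Hochberg adjustment over 18875 genes and a threshold of 0.05. The script was tested on simulated data. The SE of a log2 fold change was derived from the test, as its absolute value divided by the square root of the F statistic. CPM values are counts scaled to the TMM-adjusted library size, and correlations used log2(CPM + 0.5). Copies of the small RNAs were found with BLAST+ 2.17.0. Alternatives were DESeq2 1.42.0, other scalings, no filter, a GC and length correction, a replicate block, splits at 1 CPM of Gabra6 and leaving out each library. P-values measure the spread between mice. Litters are not named, so p-values of prenatal comparisons may be too small where brains share a dam.

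Labels number the replicates 1 to 4 in every group. Over 15229 genes, the deviations of same-numbered libraries correlated above 0.1 in every pair for LPS-LPS with LPS-saline (0.181 to 0.346), LPS-LPS with saline-LPS (0.294 to 0.386) and LPS-saline with saline-saline (0.137 to 0.599). They did not for LPS-LPS with saline-saline (0.0142 to 0.384) or saline-LPS with saline-saline (0.0319 to 0.343). No 2 libraries of a group were duplicates by a chi-square test of their counts (lowest value 5.17 per degree of freedom).

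The members, the gene lists and the tests were chosen with earlier results of these data known. Genes named beside the members were taken, from each list, from those called and those with the smallest p, at most 6 a list. Named too were the most abundant of the small RNA, rRNA, histone and long nuclear RNA classes and the gene next to each small RNA. The 10 genes most like Rn7sk in level and 5 in deviation were added. C920006O11Rik was picked after its values were seen.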

Additional observations from a re-analysis of the deposited data

Results flagged for a closer look

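A library far from the other 3 of its group was found for 4 of the 56 groups examined, over 14 measures with any spread, where chance marks about 1 group in 20. Xist, Ddx3y and Gh, which also set 1 LPS-LPS library apart, were not among these measures. The 4 thus do not count every library that stood apart. Rpph1 in LPS-LPS replicate 3 was at 3.79 CPM, with the other 3 libraries of the group between 0.412 and 0.559 CPM. In the same library CT010467.1, a ribosomal RNA gene, was at 1534 CPM, with the others between 571.0 and 698.3 CPM. Gm23935, annotated as a miRNA, was at 751.4 CPM there, with the others between 263.8 and 337.1 CPM. This is also the library with Xist and without Ddx3y. Rpph1 in LPS-saline replicate 2 was at 0.285 CPM, or 11 reads, with the other 3 libraries between 0.136 and 0.154 CPM. Rn7sk at 6.61 CPM in LPS-LPS replicate 3 was not marked in this way, since the other 3 libraries of that group were themselves spread from 1.82 to 2.76 CPM.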

How the results depend on the processing

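In LPS-LPS against saline-saline 2 members passed the threshold (Rn7sk and Snord104), which is a description, since both were chosen on that contrast. The number was 2 with the replicate block and 0 within either split by Gabra6, where 8 libraries were fitted. Leaving out 1 library at a time gave 1 to 2: Snord104 alone passed without saline-saline replicate 4, and Rn7sk alone without saline-saline replicate 2 or 3 or LPS-LPS replicate 3. In LPS-LPS against LPS-saline the number was 0, and 1 with DESeq2 (Rn7sk). In LPS-saline against saline-saline it was 0, and 1 with DESeq2 and 1 with the replicate block (Ccnt1 both times). In the added prenatal comparison it was 1, and 2 with DESeq2, 3 with the replicate block, and 0 with the GC and length correction or under 1 CPM of Gabra6. The cause was not tested. Of the 25 genes of P-TEFb release and pausing, DESeq2 and the block each called 2 higher and 6 lower in LPS-LPS against saline-saline, where edgeR without the block called 2 and 3. Among libraries under 1 CPM of Gabra6 the numbers were 0 and 0, and at 1 CPM or more 1 and 3. The block changed no other call of a member in the planned comparisons. No called fold change changed sign under any alternative, while 76 fold changes of protein genes did, none of them called. Rn7sk rests on 20 to 209 reads per library, and what greater depth would show was not tested.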
